A study of Homo sapiens with 12 samples.

Results

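The baseline microRNA (miRNA) profiles of THP-1 and MOLM-14 were compared in cells that carried a control hairpin. Both lines were established from acute myeloid leukaemias, have monocytic features and carry a fusion of KMT2A and MLLT3. A miRNA was considered if its probe reached 30 counts or more in 3 or more of the 6 control samples, and 56 of the 798 probes of the assay met this rule. The samples were 3 of control THP-1 and 3 of control MOLM-14, all transduced with a lentivirus that carried a scrambled short hairpin RNA, so that no untransduced cells stood in the comparison. The series also holds 3 samples of each line with a hairpin against MUC1, a transmembrane mucin, and these entered only alternative fits and a short comparison at the end. Total RNA of successfully transduced cells was hybridised to NanoString probes, each of which carries a colour barcode that is counted directly, with no amplification step. Each line is 1 established culture, so a difference between them is a difference between 2 lines and not between kinds of leukaemia. Nothing in the labels says that the samples of a line came from separate cultures, so a p-value here reflects the spread between these samples alone, which may be technical.

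A miRNA is a short RNA that is cut from a hairpin precursor and guides an Argonaute protein to partly complementary messenger RNAs, mostly through its seed, the stretch of bases near its 5′ end. The let-7 family is a group of miRNAs with a common seed that rises with differentiation in many tissues, is held back in stem cells by the LIN28 proteins, and acts on messengers such as those of RAS proteins, MYC and HMGA2. In blood, miR-223 is known from the granulocyte and monocyte branch, miR-181a from thymocytes and lymphoid precursors, miR-155 from activated lymphocytes and macrophages, and miR-125b from blood stem and progenitor cells.

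The 3 miRNAs that passed the test between the lines are shown first, because the results turn on them. The sequences are the mature human miRNAs of RefSeq (GRCh38.p14), written 5′ to 3′, with the seed, bases 2 to 8, in capitals.
let-7b-5p: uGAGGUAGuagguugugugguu
miR-181a-5p: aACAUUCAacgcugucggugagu
miR-6724-5p: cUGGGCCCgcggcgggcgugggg
The 3 seeds share no family. let-7b-5p comes from 1 locus at chr22:46113691-46113712 on the plus strand, inside the span of MIRLET7BHG, a long noncoding RNA gene that hosts it, and of the predicted gene LOC124905135. miR-181a-5p has 2 loci with the same mature sequence. The first lies at chr1:198859108-198859130 on the minus strand within MIR181A1HG, a noncoding host gene. The second lies at chr9:124692480-124692502 on the plus strand within NR6A1, a nuclear receptor gene, and the noncoding MIR181A2HG. In the annotation used, miR-6724-5p matched 2 loci, MIR6724-2 at chr21:8249515-8249537 and MIR6724-4 at chr21:8432540-8432562. Both lie on the plus strand and outside the other gene spans of that annotation. The numbers in these names leave room for further copies, which were not searched for. Its G and C content of 91.3% was the highest of the 52 members with a RefSeq sequence, whose median was 47.8%. The table gives gene spans only, so exon and intron positions were not read.

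The other 5 let-7 members are shown to make plain how little they differ from let-7b-5p.
let-7a-5p: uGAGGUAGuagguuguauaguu
let-7c-5p: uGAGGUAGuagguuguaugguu
let-7d-5p: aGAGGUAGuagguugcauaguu
let-7g-5p: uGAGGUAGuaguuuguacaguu
let-7i-5p: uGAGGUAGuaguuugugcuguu
All 6 have the seed GAGGUAG. Counted from 1 at the 5′ end, with the base of let-7b-5p first, let-7c-5p differs at 1 position (G17A) and let-7a-5p at 2 (G17A and G19A). let-7i-5p differs at 3 positions, and let-7d-5p and let-7g-5p at 4 each. Capture of one let-7 miRNA by the probe of another was not tested.

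Library totals were 17123, 20418 and 18110 counts in control THP-1, against 12978, 16172 and 17527 counts in control MOLM-14. The 56 members held 40.8, 46.9 and 37.9% of these totals in THP-1, against 27.2, 33.6 and 33.3% in MOLM-14. Most other probes were low. In all 6 samples 669 probes stayed below 30 counts without being at 1. They served as background probes, and their library means were 13.4, 14.3 and 14.8 counts in THP-1, against 12.6, 14.1 and 15.2 counts in MOLM-14. The MOLM-14 sample numbered 1 stood apart from the other two of its line, with the lowest total and with 31 probes at 30 counts or more, against 55 and 67. MOLM-14 samples 2 and 3 did not differ beyond sampling noise over all probes in a chi-square test of their counts (p = 0.0521, with a chi-square of 1.08 per degree of freedom), while both other pairs of that line did. They were therefore counted as 1 sample in means, SDs and the fit, which leaves n = 3 for THP-1 and n = 2 for MOLM-14. Whether they are 1 library cannot be told from the counts. THP-1 samples 1 and 3 gave p = 0.0775 over all probes (1.07 per degree of freedom) and p = 0.0139 over the members in the same chi-square test. They were kept as 2 samples, since the joining rule was set for the MOLM-14 pair only. Over all probes they were no less alike than that pair. With both pairs joined, the fit called 3 members, as the main fit did.

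The most counted member in both lines was let-7b-5p. It had 3409, 4860 and 3259 counts in THP-1, against 929, 1426 and 1529 counts in MOLM-14, and ranked first in each. This was 20.6 ± 2.96% (SD, n = 3) of all probe counts in THP-1 and 7.96 ± 1.14% (SD, n = 2) in MOLM-14. All THP-1 samples lay above all MOLM-14 samples. The other 5 let-7 members together took 5.23 ± 1.32% of the counts in THP-1 and 4.51 ± 1.65% in MOLM-14, which is within the spread between samples. miR-191-5p, an abundant miRNA of many blood cells, took 2.37 ± 0.170% in THP-1 and 1.95 ± 0.0444% in MOLM-14. miR-181a-5p took 0.424 ± 0.0123% in THP-1 and 1.86 ± 0.266% in MOLM-14. The remaining 48 members took close to the same share in both lines, 13.3 ± 0.169% in THP-1 and 14.1 ± 1.37% in MOLM-14.

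**Figure D1:**
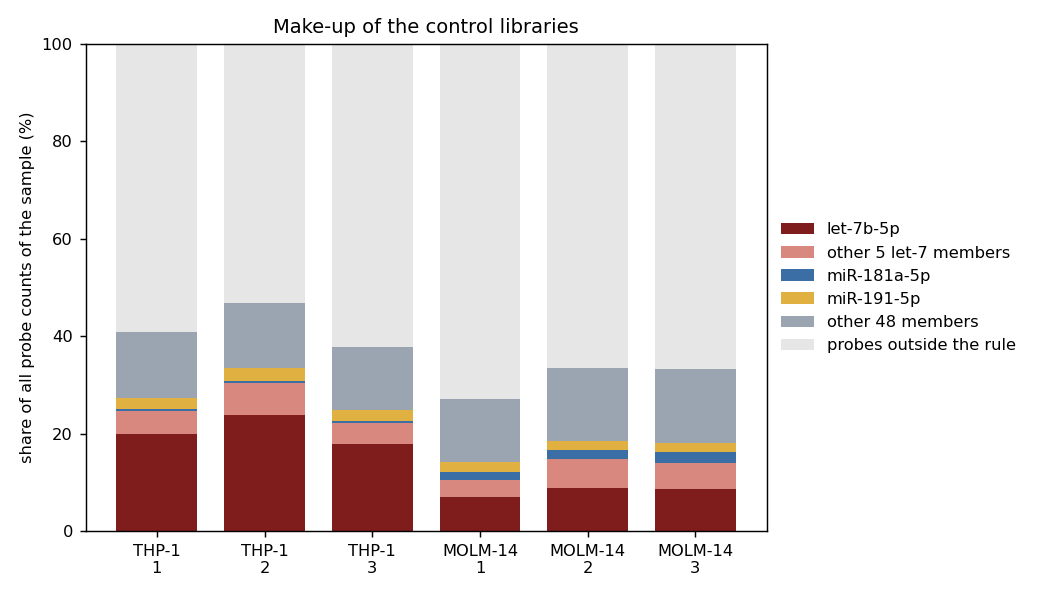
Share of all probe counts of each control sample (y axis, %) taken by let-7b-5p, the other 5 let-7 members, miR-181a-5p, miR-191-5p, the other 48 members and all probes outside the rule, with THP-1 samples on the left and MOLM-14 samples on the right. let-7b-5p took a mean of 20.6% in THP-1 and 7.96% in MOLM-14, while the other 48 members took 13.3% and 14.1%.

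The lines were alike in the order of their most counted miRNAs. Probes can differ in how well they capture their miRNA, so ranks here are ranks of counts. In THP-1 the 10 members of highest mean count were, in order, let-7b-5p, let-7a-5p, miR-191-5p, miR-15b-5p, then let-7c-5p and let-7d-5p, miR-423-5p, miR-93-5p, miR-92a-3p and miR-4443. In MOLM-14 they were let-7b-5p, let-7a-5p, miR-191-5p, miR-181a-5p, miR-15b-5p, miR-423-5p, miR-23a-3p, let-7d-5p, let-7c-5p and miR-612. The lists share 7 of 10 names. Across the 56 members the mean counts of the lines had a Spearman rho of 0.79 and a Pearson r of 0.91 on the log2 scale. These are descriptions across miRNAs of the same libraries, and miRNAs are not independent replicates. Some neighbours in the order were separated within libraries and some were not. let-7a-5p had more counts than miR-191-5p in each THP-1 library, with 471, 913 and 434 counts against 408, 517 and 397. In MOLM-14 it had 228, 611 and 590 counts against 257, 300 and 347, so that sample 1 had the other order. let-7d-5p and let-7c-5p, next to each other in both lines, changed places between samples: in THP-1 let-7d-5p had 97, 173 and 108 counts and let-7c-5p 141, 170 and 157, and in MOLM-14 let-7d-5p had 63, 114 and 121 counts and let-7c-5p 68, 101 and 120. Below these the profile was flat: 20 of the 56 members had a mean under 40 counts in both lines, only a few times the background mean.

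**Figure D2:**
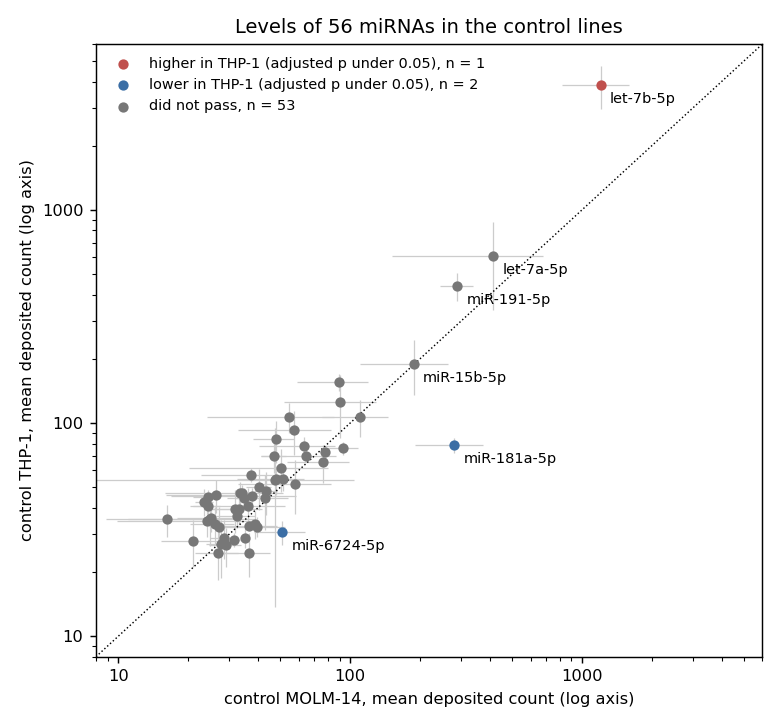
Mean deposited count of each of the 56 members in control THP-1 (y axis, log) against control MOLM-14 (x axis, log), with grey bars for the SD (n = 3 and n = 2) and a dotted line of equal counts. let-7b-5p lies far above the line, and miR-181a-5p and miR-6724-5p lie below it. Most members lie near it, at under 100 counts in both lines.

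Of the 56 members, 3 (5.36%) differed between the lines at an adjusted p under 0.05 in edgeR's quasi-likelihood test with Benjamini-Hochberg adjustment over all members. Higher in THP-1 was 1 member (1.79%), let-7b-5p, and 2 were lower (3.57%), miR-181a-5p and miR-6724-5p. The counts were scaled with TMM factors, which assume that the typical member is level between samples, and the median log2 fold change was 0.00, with 28 members on each side of 0. Before adjustment, 14 members had a p under 0.05. After scaling, 12 members had every THP-1 sample above both of the 2 MOLM-14 libraries and 10 had the reverse. In the deposited counts, with all 3 MOLM-14 samples separate, these numbers were 12 and 4, with 40 overlapping. The 2 sets of numbers thus differ in the samples compared as well as in the scaling. The share that so few samples would separate by chance was not worked out.

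miR-181a-5p had 75, 86 and 75 counts in THP-1, against 217, 313 and 379 counts in MOLM-14. The lowest MOLM-14 sample was above the highest THP-1 sample by more than the whole range of THP-1. Its log2 fold change, THP-1 minus MOLM-14, was -2.09 ± 0.17 (SE; 95% interval -2.46 to -1.73), which is 4.26-fold lower in THP-1 (edgeR adjusted p = 5.28e-07). It held 11th place among the members in THP-1 and the fourth in MOLM-14.

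let-7b-5p, whose counts are given above, had a log2 fold change of 1.41 ± 0.18 (95% interval 1.03 to 1.79), which is 2.66-fold higher in THP-1 (edgeR adjusted p = 4.88e-05). The groups did not overlap. With all 798 probes in the fit the call was lost (edgeR adjusted p = 0.116).

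Ratios within a library need no scaling between samples. There were 45.5, 56.5 and 43.5 counts of let-7b-5p for each count of miR-181a-5p in the THP-1 samples, against 4.28, 4.56 and 4.03 in the MOLM-14 samples. This ratio varied little within a line and did not come near to overlapping between them. The 2 parts of the ratio are those that the test had called, so it restates their calls without a scaling and is no further evidence for them.

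miR-6724-5p had 26, 33 and 33 counts in THP-1, against 42, 69 and 51 counts in MOLM-14. The groups did not overlap, but the THP-1 counts were close to the background probes. Its log2 fold change was -0.99 ± 0.21 (95% interval -1.45 to -0.54), which is 1.99-fold lower in THP-1 (edgeR adjusted p = 0.00700). With the background mean of each sample subtracted, it was -1.55 on the same scale. This call was lost in a model of all 12 samples and 4 groups (edgeR adjusted p = 0.162), which called 3 members, and it was also lost without THP-1 sample 2 and with all 798 probes in the fit.

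**Figure D3:**
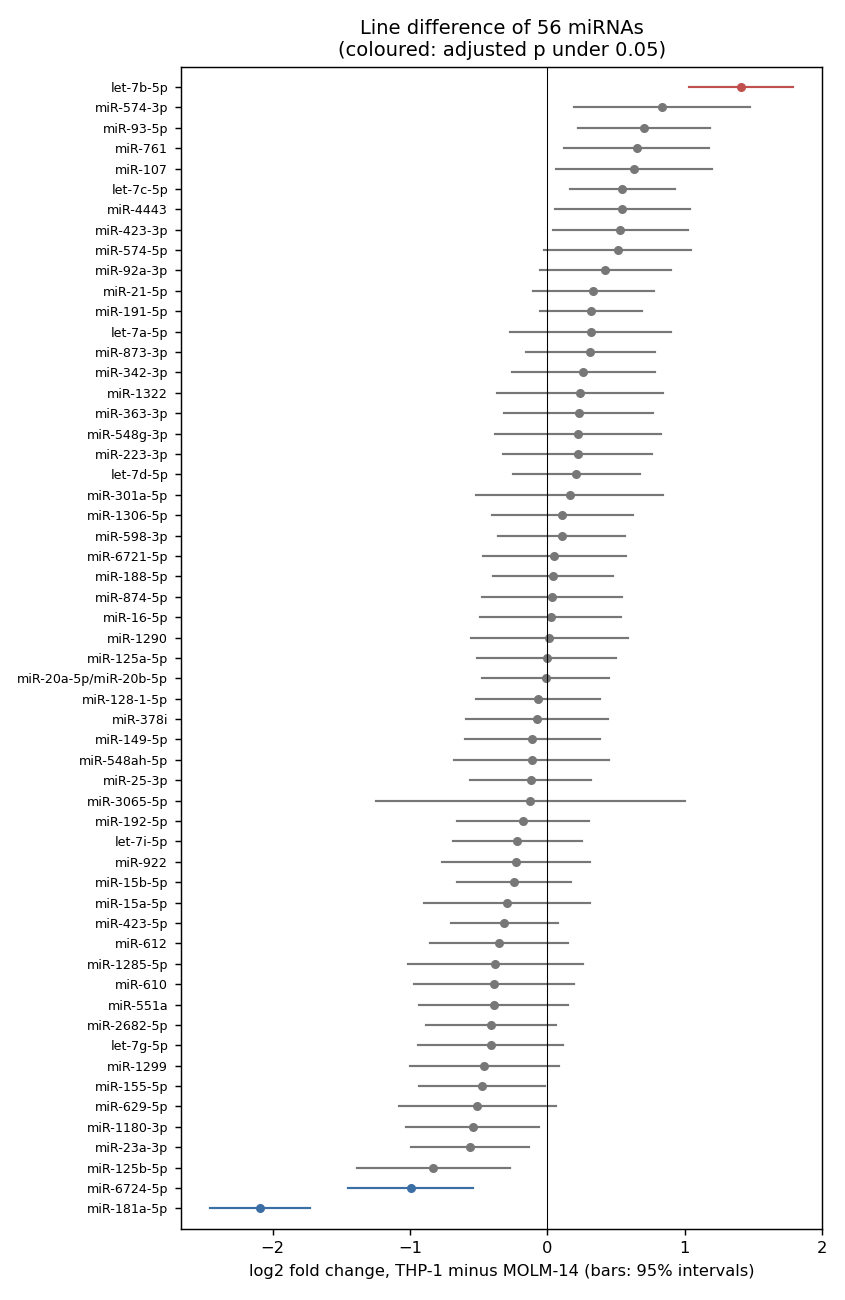
Log2 fold change, THP-1 minus MOLM-14 (x axis), of each of the 56 members with its 95% interval, ordered by size. Coloured are let-7b-5p (1.41), miR-6724-5p (-0.99) and miR-181a-5p (-2.09), the members with an adjusted p under 0.05.

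The split of the calls depended on the scaling. TMM scaling called 1 higher and 2 lower. Scaling on the 669 background probes called 4 higher and 2 lower, with the median member at 0.20 on the log2 scale, and it added miR-107, miR-574-3p and miR-761 to the 3 above. Scaling on the 100 probes of highest mean called 3 higher and 2 lower, and scaling on total counts called 1 higher and 3 lower, with miR-125b-5p added. DESeq2, which changes the test along with the scaling, called 2 in each direction. With MOLM-14 samples 2 and 3 as separate samples, 8 members were called, 4 in each direction. The added members then were let-7c-5p, miR-93-5p and miR-574-3p, which were higher, and miR-125b-5p and miR-23a-3p, which were lower. miR-107 and miR-574-3p had met the count rule through THP-1 samples alone. miR-761 had 1 MOLM-14 sample at 30 counts, but its 3 THP-1 samples were enough to admit it. The calls of these members here are thus no further evidence for a difference.

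The members of the let-7 family did not all move with let-7b-5p. Of the 6, 1 was called higher and none lower, 4 had a positive log2 fold change, and their median was 0.26, against 0.00 over all 56. let-7c-5p had 141, 170 and 157 counts in THP-1, against 68, 101 and 120 counts in MOLM-14, and a log2 fold change of 0.55 ± 0.18 that did not pass (edgeR adjusted p = 0.0765). Its groups did not overlap, and its difference was smaller than that of let-7b-5p: there were 24.2, 28.6 and 20.8 counts of let-7b-5p for each of let-7c-5p in THP-1, against 13.7, 14.1 and 12.7 in MOLM-14. let-7a-5p (0.32) and let-7d-5p (0.21) lay on the positive side with overlapping samples. let-7i-5p (-0.22) and let-7g-5p (-0.41) lay on the negative side, also overlapping. Together the 6 held 60.3, 65.2 and 58.7% of all member counts in THP-1, against 38.5, 44.1 and 42.3% in MOLM-14, most of it from let-7b-5p. let-7b-5p lies 939 bases from a copy of let-7a-5p on chromosome 22. That copy gives the same mature sequence as 2 others, so its own output cannot be read from the counts.

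Of the miR-181 hairpins, known from lymphoid cells, 5 probes were measured and only miR-181a-5p reached the rule. Of the others, 2 are for 5p arms of paralogs and 2 for the opposite arms of the miR-181a hairpins, miR-181a-3p and miR-181a-2-3p, which have other seeds. All 4 stayed at or below 28 counts in all 6 control samples. The joint probe for miR-181b-5p and miR-181d-5p, close paralogs of miR-181a, had 14, 17 and 21 counts in THP-1, against 20, 20 and 28 counts in MOLM-14. These lie within the range of the background probes, so a difference like that of miR-181a-5p was not detectable for them at this depth.

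Other members that share a seed are shown because their differences did not run together.
miR-20a-5p: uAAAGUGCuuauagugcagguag
miR-20b-5p: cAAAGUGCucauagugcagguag
miR-93-5p: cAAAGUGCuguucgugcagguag
miR-25-3p: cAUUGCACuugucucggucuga
miR-92a-3p: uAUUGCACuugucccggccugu
miR-363-3p: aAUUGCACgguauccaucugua
miR-125a-5p: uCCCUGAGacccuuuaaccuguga
miR-125b-5p: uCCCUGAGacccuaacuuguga
The first 3 and the next 3 belong to the miR-17-92 cluster and its paralogs, which are known to promote growth and are driven by MYC. None of the 5 member probes of these clusters was called, 3 were positive, and their median log2 fold change was 0.23. miR-93-5p had 100, 126 and 94 counts in THP-1, against 33, 74 and 78 counts in MOLM-14, without overlap, and its difference was 0.70 ± 0.22 on the log2 scale (edgeR adjusted p = 0.0765). The probe shared by miR-20a-5p and miR-20b-5p, which carry the same seed, had -0.01. miR-25-3p, which lies 244 bases from miR-93-5p on chromosome 7 within MCM7, a replication licensing gene, had -0.12. Its counts were 68, 68 and 75 in THP-1, against 48, 76 and 85 in MOLM-14, and overlapped. miR-92a-3p had 0.42, with overlapping counts. miR-363-3p had 0.23; its deposited counts of 45, 44 and 52 in THP-1, against 35, 34 and 32 in MOLM-14, did not overlap, but its scaled counts did.

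Of the pair with the seed CCCUGAG, miR-125b-5p had 20, 23 and 31 counts in THP-1, against 31, 42 and 43 counts in MOLM-14. The highest THP-1 sample met the lowest MOLM-14 sample at 31. Its log2 fold change was -0.83 ± 0.26 (edgeR adjusted p = 0.0765), while that of miR-125a-5p was -0.01 ± 0.24. In the model of all 12 samples miR-125b-5p was among the 3 calls, in place of miR-6724-5p.

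The miR-15/16 family, which is known to hold back BCL2 and cyclins and is lost in many chronic lymphocytic leukaemias, had 3 members and no call. Its members are shown because they share the seed AGCAGCA.
miR-15a-5p: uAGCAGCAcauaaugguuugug
miR-15b-5p: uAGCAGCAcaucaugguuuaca
miR-16-5p: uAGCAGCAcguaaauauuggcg
miR-15b-5p, the most counted of them, had 161, 253 and 156 counts in THP-1, against 133, 244 and 241 counts in MOLM-14. The log2 fold changes were -0.24 for miR-15b-5p, -0.30 for miR-15a-5p and 0.02 for miR-16-5p, and the samples overlapped for each.

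For 2 hairpins both arms were members. From the hairpin of miR-423, the 3p arm had 46, 54 and 38 counts in THP-1, against 19, 24 and 43 counts in MOLM-14, and the 5p arm had 96, 131 and 94 counts in THP-1, against 86, 139 and 131 counts in MOLM-14. The log2 fold changes were 0.53 ± 0.23 for miR-423-3p and -0.31 ± 0.18 for miR-423-5p, and neither passed (edgeR adjusted p = 0.156 and 0.283). Within a library the 3p arm gave 0.479, 0.412 and 0.404 counts for each count of the 5p arm in THP-1, against 0.221, 0.173 and 0.328 in MOLM-14. The 3 THP-1 ratios were above the 3 MOLM-14 ratios; this ratio was picked out after its values were seen and was not tested. From the hairpin of miR-574, both arms were on the positive side, at 0.83 ± 0.30 for miR-574-3p and 0.51 ± 0.25 for miR-574-5p, and neither passed (edgeR adjusted p = 0.101 and 0.222). Both arms had met the count rule through THP-1 samples alone, so their shared direction supports nothing further.

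**Figure D4:**
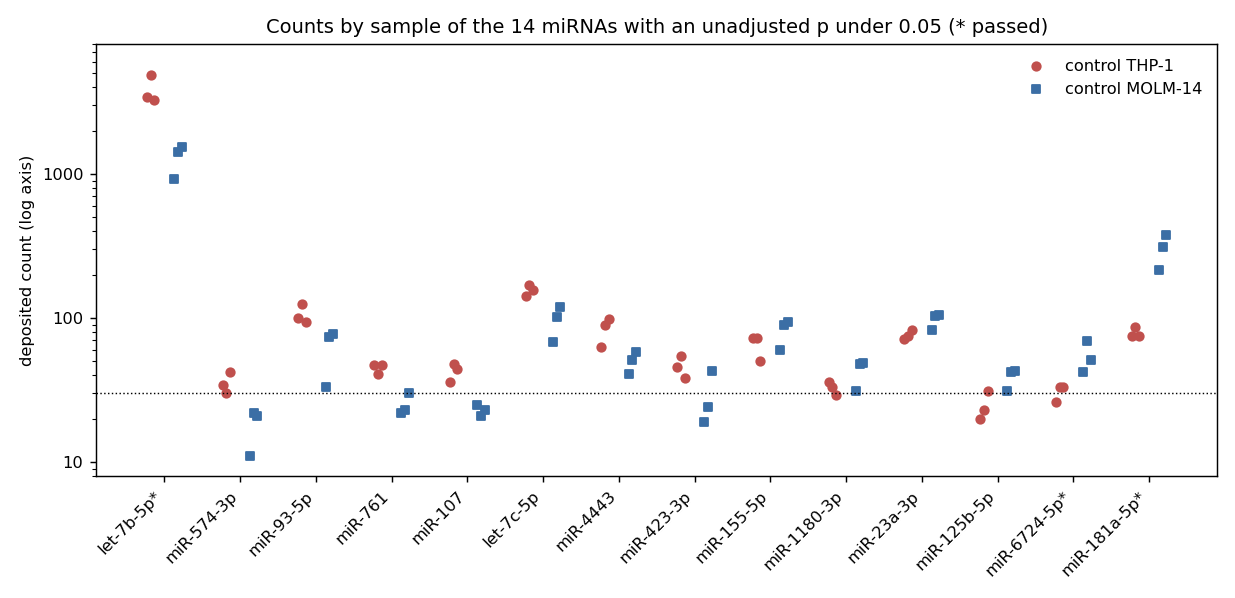
Deposited counts (y axis, log) of the 14 members with an unadjusted p under 0.05, ordered by log2 fold change, with the 3 THP-1 samples as circles on the left and the 3 MOLM-14 samples as squares on the right of each name. The dotted line marks 30 counts, and asterisks mark the 3 members that passed after adjustment. Beside let-7b-5p and miR-181a-5p, most of these members lay below about 100 counts.

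Of 12 probes for miRNAs known from myeloid and monocytic cells, 5 were members and none was called, with a median log2 fold change of -0.01. With 5.36% of all members called, a count of 0 in this or any other list of a few members sets the list apart from the rest in no way. miR-223-3p had 47, 41 and 53 counts in THP-1, against 21, 49 and 43 counts in MOLM-14, and overlapped (0.22 ± 0.25). miR-155-5p had 73, 73 and 50 counts in THP-1, against 60, 90 and 94 counts in MOLM-14 (-0.48 ± 0.21, edgeR adjusted p = 0.167). miR-21-5p, which is raised in many tumours, had 54, 62 and 55 counts in THP-1, against 27, 43 and 53 counts in MOLM-14 (0.33 ± 0.21, edgeR adjusted p = 0.308). miR-23a-3p, which is made with miR-27a and miR-24 from 1 transcript, had 71, 75 and 82 counts in THP-1, against 83, 103 and 105 counts in MOLM-14. The lines did not overlap for it, and the log2 fold change of -0.56 ± 0.20 did not pass (edgeR adjusted p = 0.101). Its cluster partners gave no more than background: miR-27a-3p had 17, 8 and 14 counts in THP-1, against 10, 11 and 9 counts in MOLM-14, and miR-24-3p had 13, 12 and 15 counts in THP-1, against 6, 16 and 13 counts in MOLM-14.

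The label of both lines as myeloid cells had mixed marks in these counts. miR-223-3p had more than 40 counts in 5 of 6 samples, whereas miR-142-3p, a defining miRNA of all blood cells, had 14, 23 and 22 counts in THP-1, against 21, 23 and 19 counts in MOLM-14, which is the range of the background probes. miR-150-5p, of mature lymphocytes, had 24, 12 and 16 counts in THP-1, against 11, 12 and 18 counts in MOLM-14. Of 6 lymphoid probes 3 were members, and of these miR-181a-5p was called lower. The sums over all 6 ran from 213 to 246 counts in THP-1 and from 350 to 560 counts in MOLM-14. Without miR-181a-5p they were 153, 160 and 138 counts in THP-1, against 133, 172 and 181 counts in MOLM-14, and overlapped. The defining erythroid, epithelial, muscle and neural probes gave no member. Their highest single counts in the 6 samples were 27, 26, 24 and 28, and the liver marker miR-122-5p was listed at 1 in every one. A list of 47 probes of the 14q32 cluster, an imprinted miRNA region, also had no member, with a highest count of 28. Probes of miRNAs encoded in the HOX clusters, of which miR-196b is known from leukaemias with KMT2A fusions, had no member and a highest count of 26. Of 27 probes for miRNAs reported to target the checkpoint ligand PD-L1, 6 were members and none was called, with a median log2 fold change of -0.13. Of the 5 probes of miR-125 and the related miR-99 and miR-100, 2 were members. The cluster of miR-23, miR-24 and miR-27, the cluster of miR-191 and a list of fragments of structural RNA had 1 member each, and none of these was called. The remaining lists had no member. Their highest counts were 39 for miR-221 and its neighbour, 33 for fibroblast and smooth muscle miRNAs, 31 for the miR-30 and for the miR-148 families, 29 for megakaryocyte and endothelial miRNAs, 28 for miR-34, 27 for miR-26, 26 for miR-200 and 22 for the miR-29 family.

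The members with the largest rank gain in THP-1 were miR-761 and miR-107, each 21 places higher there, followed by miR-423-3p (19), miR-574-5p (17) and miR-574-3p (16). miR-107, whose locus lies within PANK1, a gene of coenzyme A synthesis, had 36, 48 and 44 counts in THP-1, against 25, 21 and 23 counts in MOLM-14, with a difference of 0.63 ± 0.26 on the log2 scale (edgeR adjusted p = 0.148). miR-761 had 47, 41 and 47 counts in THP-1, against 22, 23 and 30 counts in MOLM-14 (0.65 ± 0.25, edgeR adjusted p = 0.124). Neither overlapped between the lines, and both passed when the background probes set the scale, the only alternative that called them. miR-107 met the count rule through THP-1 samples alone. miR-761 had 1 MOLM-14 sample at 30 counts, but its 3 THP-1 samples were enough to admit it. Neither point is thus further evidence for either miRNA. The largest losses of rank were those of miR-6724-5p (30 places), miR-125b-5p (24), miR-1180-3p (19), and miR-1299 and miR-629-5p (15 each). miR-1180-3p had 36, 33 and 29 counts in THP-1, against 31, 48 and 49 counts in MOLM-14 (-0.54 ± 0.22, edgeR adjusted p = 0.148). Many members lie between 25 and 50 counts, where a few counts move a rank by many places.

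The rule itself could admit a miRNA through 1 line. It did so for 3 members, all through THP-1: miR-107, miR-574-5p and miR-574-3p reached 30 counts in each THP-1 sample and in no MOLM-14 sample. miR-574-5p had 46, 42 and 35 counts in THP-1, against 22, 25 and 28 counts in MOLM-14. miR-574-3p had 34, 30 and 42 counts in THP-1, against 11, 22 and 21 counts in MOLM-14. These members had to differ in order to enter, so their differences support nothing further. Of the others, 25 reached 30 counts in all 6 samples and 28 passed with samples of both lines. Near the threshold, 9 members had 30 to 32 counts in the sample that decided their entry, the one with their highest count but 2, and 13 probes just outside had 27 to 29 counts there. Outside the rule 11 probes reached 30 counts in 2 samples, 40 in 1 sample and 691 in none.

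In the deposited counts, the highest count of a member in a line was a median of 1.37 times its lowest in THP-1 and 1.64 times in MOLM-14. These ratios carry the library sizes: with each sample scaled to its member total they were 1.47 in THP-1 and 1.37 in MOLM-14. Member totals in turn carry let-7b-5p, which made up 49.0% of them in THP-1 and 26.2% in MOLM-14. Since the order of the lines changed with the scaling, neither line can be called the more variable. miR-3065-5p varied most, with 37, 100 and 25 counts in THP-1, against 8, 68 and 106 counts in MOLM-14. Its log2 fold change of -0.12 ± 0.52 had the widest error of the members. let-7a-5p was highest in THP-1 sample 2 and lowest in MOLM-14 sample 1, the largest and the smallest library of the 6. Scaled to the member totals, its highest count was still 1.51 times its lowest in THP-1 and 1.74 times in MOLM-14. The cause of its spread was not tested. Outside the rule, and chosen after its values were seen, miR-1246 was listed at 1 in all 3 THP-1 samples, against 14, 172 and 224 counts in MOLM-14. The MOLM-14 samples spanned from background to a level above most members. No fold is given, since a listed value of 1 is the lowest value in the file and may be a floor. In fits that admitted it, with all probes or with the count rule over all 12 samples, it was called lower in THP-1. The count rule admitted it through MOLM-14 samples alone, so that call supports nothing further. With the hairpin against MUC1 it was at 1 in every THP-1 sample, against 1, 188 and 1 in MOLM-14. miR-1246 shares a run of 12 bases with the member miR-1290, and both are shown with the seed in capitals.
miR-1246: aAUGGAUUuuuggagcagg
miR-1290: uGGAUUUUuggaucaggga
miR-1290 had 36, 38 and 24 counts in THP-1, against 26, 34 and 23 counts in MOLM-14, a narrower range than that of miR-1246 in MOLM-14.

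**Figure D5:**
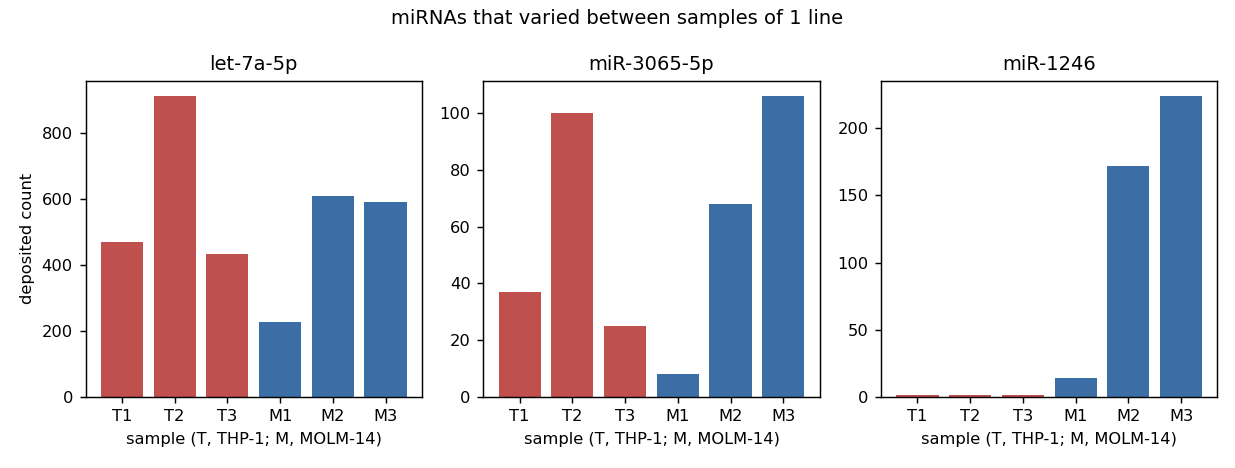
Deposited counts (y axes, from 0) by sample of let-7a-5p and miR-3065-5p, which are members, and of miR-1246, which is outside the rule, with THP-1 samples (T1 to T3) on the left and MOLM-14 samples (M1 to M3) on the right. miR-3065-5p ran from 25 to 100 counts in THP-1 and from 8 to 106 in MOLM-14, and miR-1246 was at 1 in THP-1 and ran from 14 to 224 in MOLM-14.

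In the samples with the hairpin against MUC1, grouped by their titles, miR-181a-5p again lay lower in THP-1. It had 22, 20 and 17 counts there, against 404, 494 and 407 counts in MOLM-14. These THP-1 counts lay close to the background means of 14.5, 13.2 and 10.3 counts. let-7b-5p had the other order there, with 239, 203 and 150 counts in THP-1, against 467, 802 and 586 counts in MOLM-14, a pattern whose difference from the control samples was not tested here. miR-6724-5p, the remaining called member, overlapped there, with 28, 12 and 14 counts in THP-1, against 27, 78 and 21 counts in MOLM-14. The source names of these MOLM-14 samples go against the titles for 2 of the 3, reading MUC2 and MUC3, and sample 2 stood apart, with a chi-square per degree of freedom over the members of 20.2 against sample 1 and 16.6 against sample 3.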

How the data were processed

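NanoString miRNA probe counts of 12 samples in 1 table were used as the authors deposited them. All values were whole numbers of at least 1, and were taken as counts on that ground. How the counts were read out, corrected for background or scaled between lanes is not given in the sources used here. Samples were grouped by their titles. The members, the 27 miRNA lists and the tests were chosen with earlier results of these data known.

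The 6 control samples, with MOLM-14 samples 2 and 3 summed, were fitted with edgeR 4.0.16 (quasi-likelihood, R 4.3.3), with TMM factors over the 56 members and Benjamini-Hochberg adjustment over them at a threshold of 0.05. Errors are SE of log2 fold changes or SD of counts, and intervals are 95%. Named were all called members, the 10 of highest mean count in each line, the 5 largest rank gains and losses, members that passed through 1 line, and members of lists described. Alternatives were DESeq2 1.42.0, limma 3.58.1 on log2 counts, other scalings and filters, background subtraction, a replicate block, a 12-sample fit and leaving out samples. Chosen after seeing the data were joining THP-1 samples 1 and 3 and leaving out let-7b-5p. Sequences and loci are from RefSeq (GRCh38.p14), which is not stated to be the build of the probes. The replicate numbers were not said to pair samples across lines.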

Additional observations from a re-analysis of the deposited data

How the results depend on the processing

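Against 3 members called, the count was 8 with MOLM-14 samples 2 and 3 kept separate, 6 with background scaling, and 5 each with top 100 scaling, with limma at a pseudocount of 1, with limma at a pseudocount of 10, and with a filter of 100 counts, where only 8 members were tested. It was 2 of 798 with no count filter (miR-181a-5p and miR-1246), 2 of 55 without let-7b-5p, and 4 of 67 with the count rule over 12 samples. It was 3 to 4 when each sample except MOLM-14 sample 1 was left out in turn. Leaving out MOLM-14 sample 1 left 1 joined MOLM-14 library, with no spread in that line. The log2 fold changes were then -2.15 for miR-181a-5p, 1.35 for let-7b-5p and -0.98 for miR-6724-5p. Without THP-1 sample 2, miR-6724-5p was lost and miR-574-3p, which had met the count rule through THP-1 samples alone, was called. Apart from the run with 1 MOLM-14 library, miR-181a-5p was called under every alternative run, and let-7b-5p under all that tested it except no count filter. No called member changed direction. Of the members alone, let-7b-5p held 49.0% in THP-1 and 26.2% in MOLM-14. The cause of these shifts was not tested. Whether the replicate numbers pair the samples cannot be told from the counts. Deviations of same-numbered samples from their line means correlated at 0.13, 0.27 and -0.27. Those of differently numbered samples ran from -0.51 to 0.47. With the number as a replicate block on the 6 separate samples, 4 members were called, against 8 without it. Counting error is large for members near 30 counts.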
